A study of Arabidopsis thaliana with 4 samples.

Results

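The 10 genes described here encode xyloglucan endotransglucosylase/hydrolases (XTHs) of Arabidopsis thaliana. They are XTH12 (AT5G57530), XTH13 (AT5G57540), XTH14 (AT4G25820), XTH15 (AT4G14130), XTH17 (AT1G65310), XTH19 (AT4G30290), XTH22 (AT5G57560), XTH24 (AT4G30270), XTH31 (AT3G44990) and XTH33 (AT1G10550). They were picked from a family of 33 loci with their levels and ratios in these libraries in view, so every value below is a description of them and none is a test. All 10 were listed among the 21531 loci with reads in any library, and all 10 passed the filter of 1 RPKM (reads per kilobase of coding length, scaled to the reads of the library) in every comparison.

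Xyloglucan is a branched glucan that coats and ties cellulose in the primary cell wall. XTH enzymes cut its backbone and either join the cut end to another chain or, in a few members, leave it hydrolysed, and in this way they loosen or rebuild the wall as root cells elongate and as root hairs grow out. In aluminium (Al) stress the wall is a main site of Al binding, and published work links XTH17 and XTH31 to Al binding by root walls and to Al sensitivity.

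Polyadenylated RNA was sequenced from roots of 6-day-old seedlings of the Columbia wild type (Col) and of luh-4, a mutant of the co-repressor gene LEUNIG_HOMOLOG (LUH) in the Columbia ecotype. Seedlings of both genotypes, about 500 a treatment, were grown at pH 5.5 and moved to solution at pH 4.2 with 0 µM AlCl3 (the controls) or 25 µM AlCl3 (the Al libraries). The protocol has roots of both arms taken after 4 h, whereas the control labels give 0 h, so time in the acid solution and Al cannot be told apart. Each group is 1 library of pooled roots with 13.45 M to 13.82 M reads on transcripts, so no difference has a replicate check, and intervals are 95% intervals for counting error only. In pooled roots, fewer cells of a type and less RNA per cell cannot be told apart.

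For LUH, 75 reads were counted in Col without Al, 63 in Col with Al, and 0 in either library of the mutant. Taking 3 reads per library as the upper limit behind a 0, and the Col reads as exact, LUH was at least 25.1-fold lower without and 20.4-fold lower with Al. Those bounds leave out the counting error of the Col reads. The intervals for the log2 ratio of luh-4 to Col reached up to -4.31 without and -4.01 with Al, which are weaker limits. Reads in Col covered only 18.62% of the length of LUH without and 18.96% with Al, so these values rest on a small part of the gene. All 6 root markers, among them PIN2 and CASP1, were present, with summed levels of 672 to 746 RPKM. The luh-4 control library stood apart in 14 green shoot markers, whose levels summed to 378 RPKM there and to 83.1 to 99.2 RPKM in the other 3 libraries. The Al library of luh-4 is therefore also set against the control of Col below. Such a ratio is between libraries that differ in genotype as well as in Al, so it is not an Al response alone.

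The coding sequences say how far the genes can be told apart by reads. All 10 genes had 1 listed transcript of 810 to 933 coding bases, the same length as in the RefSeq annotation of TAIR10.1, which is credited for all sequences here. XTH12 and XTH13, the most alike pair among the 10, had 89.7% identical bases. No window of 50 bases was the same in both genes, so a read of that length matches only 1 of them exactly, while reads placed with mismatches allowed could be shared. Neither the read length nor a mismatch limit is given in the sources used here. The 60-base window with most differences (TAIR10.1 coordinates), from coding position 32 of XTH12 and 29 of XTH13, holds 11, shown in capitals.
XTH12, chr5:23301459-23301518 (minus strand, exonic): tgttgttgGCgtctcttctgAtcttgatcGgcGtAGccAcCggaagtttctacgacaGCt
XTH13, chr5:23303962-23304021 (minus strand, exonic): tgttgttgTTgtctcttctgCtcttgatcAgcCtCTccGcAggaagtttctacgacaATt
Outside the 10, XTH18 was 92.2% identical to XTH17 and 89.2% to XTH19, with 0 of 800 and 19 of 785 windows of 50 bases shared. XTH17 and XTH19 shared 2 windows of 800. The single values of XTH17 and XTH19 are therefore less certain than those of XTH14, XTH22, XTH24, XTH31 and XTH33, whose nearest relatives had 63.5% to 80.9% identity and no shared window.

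The codons of the conserved active-site stretch, 27 bases, were found in all 10 genes and in 31 of the 33 family loci. They are shown for genes that moved in opposite directions and for XTH31, which belongs to the branch of the family known for hydrolysis. All 5 are exonic, with TAIR10.1 coordinates, and capitals mark bases that differ from XTH12.
XTH12, chr5:23301145-23301171 (minus strand): gatgagattgatttcgagttcttgggt
XTH13, chr5:23303645-23303671 (minus strand): gatgaAatCgaCttcgagttcttgggt
XTH22, chr5:23307839-23307865 (minus strand): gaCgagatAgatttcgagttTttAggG
XTH31, chr3:16447882-16447908 (minus strand): gatgagGtCgatAtcgagttTCtAggG
XTH33, chr1:3480306-3480332 (minus strand): gaCgagatAgaCAtAgaAttGttgggt
XTH13 differed from XTH12 at 3 of the 27 bases, XTH22 at 5, and XTH31 and XTH33 at 7 each.

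The level of the 10 genes spanned from 0.465 to 637 RPKM. XTH31 was the highest of them in all 4 libraries, with 497 RPKM in Col without and 411 with Al, and 637 and 424 RPKM in luh-4, and ranked between 234 and 395 among all listed loci. XTH12, XTH13 and XTH33 were, in that order, the lowest in every library. The order between them changed with Al: XTH22 stood at position 7 in both controls and at position 3 in both Al libraries. Neighbours in this order whose counting intervals overlapped were XTH19 and XTH14 in Col control, and XTH24, XTH17 and XTH15 in luh-4 control. In the other 2 libraries no neighbours overlapped. The summed level of the 10 genes was 1489 RPKM in Col control and 1558 in Col Al, and 1719 and 1810 RPKM in the luh-4 pair. The 10 genes thus held 42.2% to 46.2% of the summed RPKM of the family. XTH4, which is not among the 10, was the highest of the whole family in 3 libraries, and XTH18 in Col Al.

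**Figure D1:**
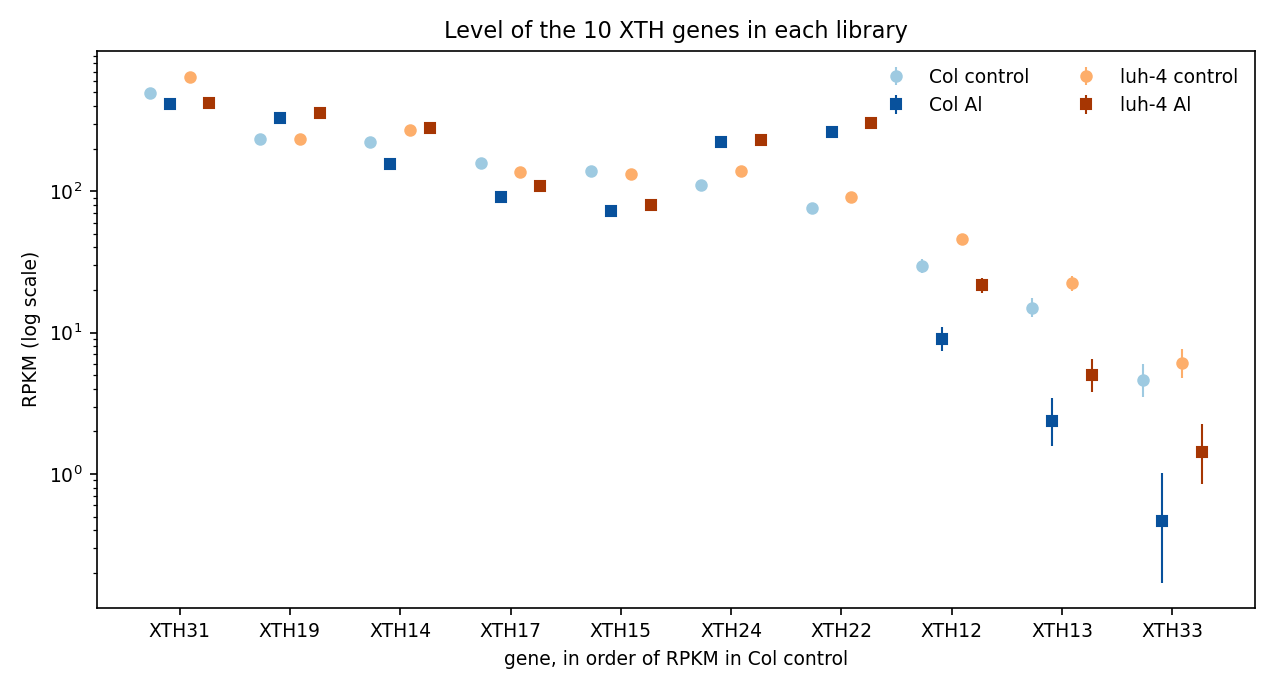
RPKM (log scale) of the 10 XTH genes in the 4 libraries, 1 point per library, with vertical lines for 95% exact Poisson intervals of counting error. XTH22 lies at 75.9 and 91.1 RPKM in the controls and at 263 and 301 RPKM with Al, while XTH12, XTH13 and XTH33 lie lower with Al in both genotypes.

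The first question was how Al moved these genes in each genotype. In both genotypes XTH12, XTH13 and XTH33 fell and XTH22 rose, and in Col XTH24 rose too. A gene is said to rise or fall here where its log2 ratio of RPKM + 0.1 was at least 1 or at most -1 and its exact binomial interval excluded 0. In Col, 2 of the 10 rose and 3 fell, where the rule called 2.6% of 17068 measured loci higher and 2.91% lower, 5.51% in either direction. In luh-4, 1 rose and 3 fell, against 2.02% and 3.1% of 17117 loci, 5.12% in either direction. Since the genes were picked on these same ratios, nothing is read from that contrast. The median log2 ratio of the 10 was -0.66 in Col and -0.47 in luh-4, and over all measured loci 0.02 and -0.02. With all libraries in 1 model, an edgeR quasi-likelihood fit of genotype plus treatment, which has 1 residual degree of freedom and no fold minimum, called 5.49% of 17435 loci higher with Al, 6.39% lower and 11.9% in either direction, and 3 of the 10 genes higher and 6 lower.

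XTH12 and XTH13, enzymes expressed in the root zone where hairs form, fell most among the genes with over 100 control reads. XTH12 had 29.6 RPKM in Col without Al and 9.02 with Al, and 46.0 and 21.6 RPKM in luh-4, from 348, 107, 542 and 249 reads. Both Al libraries were below both controls, and luh-4 Al was above Col Al. Its log2 ratio of Al to control in Col was -1.70 (-2.04 to -1.40), and that in luh-4 -1.09 (-1.31 to -0.87). Set against the control of Col instead of its own, the Al library of luh-4 gave -0.45 for XTH12, which does not pass the rule. XTH13, for which RefSeq records transglucosylase activity only, had 15.0, 2.37, 22.3 and 5.04 RPKM in the same order. From high to low, its libraries stood in the same order as those of XTH12. The log2 ratio in Col was -2.61 (-3.30 to -2.08), and in luh-4 it was -2.12 (-2.58 to -1.73). XTH13 made up 33.6% (29.6 to 37.8, exact binomial) of the reads of the pair in Col control and 20.7% (14.3 to 28.6) in Col Al. In luh-4 its share was 32.6% (29.4 to 36.0) without and 18.9% (14.7 to 23.7) with Al, so with Al its share was lower in both genotypes.

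XTH33, which carries a predicted membrane anchor, was the lowest of the 10 and had the largest ratio in size in Col. It had 4.62 RPKM in Col without Al and 0.465 with Al, and 6.09 and 1.43 RPKM in luh-4, from 59, 6, 78 and 18 reads. Both Al libraries were below both controls. Its log2 ratio in Col was -3.06 (-4.81 to -2.10), that in luh-4 -2.01 (-2.91 to -1.33), and these few reads leave the widest intervals among the 10.

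XTH22, also named TCH4, is known as a gene induced by touch and other mechanical stimuli. In Col it had 75.9 RPKM without and 263 with Al, and in luh-4 91.1 and 301 RPKM. The 2 Al libraries were above both controls. Its log2 ratio in Col was 1.79 (1.68 to 1.90) and that in luh-4 1.72 (1.63 to 1.83), above 98.9% and 99.1% of the measured loci. Of the 3 other touch genes looked at, CAM2 had log2 ratios of -0.02 and 0.21 and CML24 0.24 and -0.15, none past the rule. CML12 had 0 reads in every library and was not measured, and the reads of CAM2 covered 64.0% to 64.89% of its length. XTH24, first described from meristems as MERI5, had 110.5 RPKM in Col without and 223 with Al, and 138 and 231 RPKM in luh-4. Both Al libraries were above both controls. Its log2 ratio in Col was 1.01 (0.91 to 1.11), and that in luh-4 0.75 (0.65 to 0.84). The Col value stands at the edge of the rule: it was 0.99 with TMM scaling and with centring on the median of all loci, and then did not pass. When luh-4 with Al was set against Col without Al it was 1.07, which passes.

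The other 5 genes did not pass the rule in either genotype. XTH19, of a group of root genes that respond to auxin, had 234 RPKM in Col without and 330 with Al, and 235 and 358 RPKM in luh-4. Its log2 ratios were 0.50 (0.43 to 0.57) and 0.60 (0.53 to 0.68). XTH17, its close relative, had, in the same order, 159, 90.4, 137 and 108 RPKM, with log2 ratios of -0.81 (-0.92 to -0.70) and -0.34 (-0.45 to -0.23). The ratios of these 2 relatives were thus of opposite sign in both genotypes. XTH15 had 139, 71.9, 133 and 79.6 RPKM and log2 ratios of -0.95 (-1.07 to -0.83) and -0.74 (-0.86 to -0.62). An annotated gene on the opposite strand, AT4G14120, overlaps 241 of its coding bases and had 50 to 85 reads, against 865 to 1659 for XTH15, and the counting is not stated to use strand. XTH31, whose level was highest in luh-4 without Al, had log2 ratios of -0.27 (-0.33 to -0.22) and -0.59 (-0.64 to -0.54), the latter -0.23 when the control of Col took the place of that of luh-4. XTH14, a root gene related to XTH12 and XTH13, had 224 RPKM in Col without and 157 with Al, and 272 and 280 RPKM in luh-4. Its log2 ratios were -0.52 (-0.60 to -0.43) and 0.04 (-0.03 to 0.11), so Col with Al was the lowest of its 4 libraries and the ratio in luh-4 had an interval that holds 0.

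With the control of Col in place of that of luh-4, the Al library of luh-4 gave other values for several of the 10 genes. These ratios hold the genotype difference together with that of Al, and the 2 cannot be told apart in them. By the rule 2 genes were higher and 2 lower, against 2.34% and 2.56% of 17055 loci. XTH13 at -1.56 (-2.03 to -1.14) and XTH33 at -1.62 (-2.54 to -0.90) were lower than in Col control, and XTH22 at 1.99 (1.88 to 2.096) was higher. XTH24 passed as well, and XTH12 did not, as given above. XTH14 was at 0.32 (0.25 to 0.39) in place of 0.04, and XTH17 at -0.55 (-0.66 to -0.45) in place of -0.34. XTH15 at -0.80 and XTH19 at 0.61 stayed within the intervals given above, and XTH31 at -0.23 did not.

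**Figure D2:**
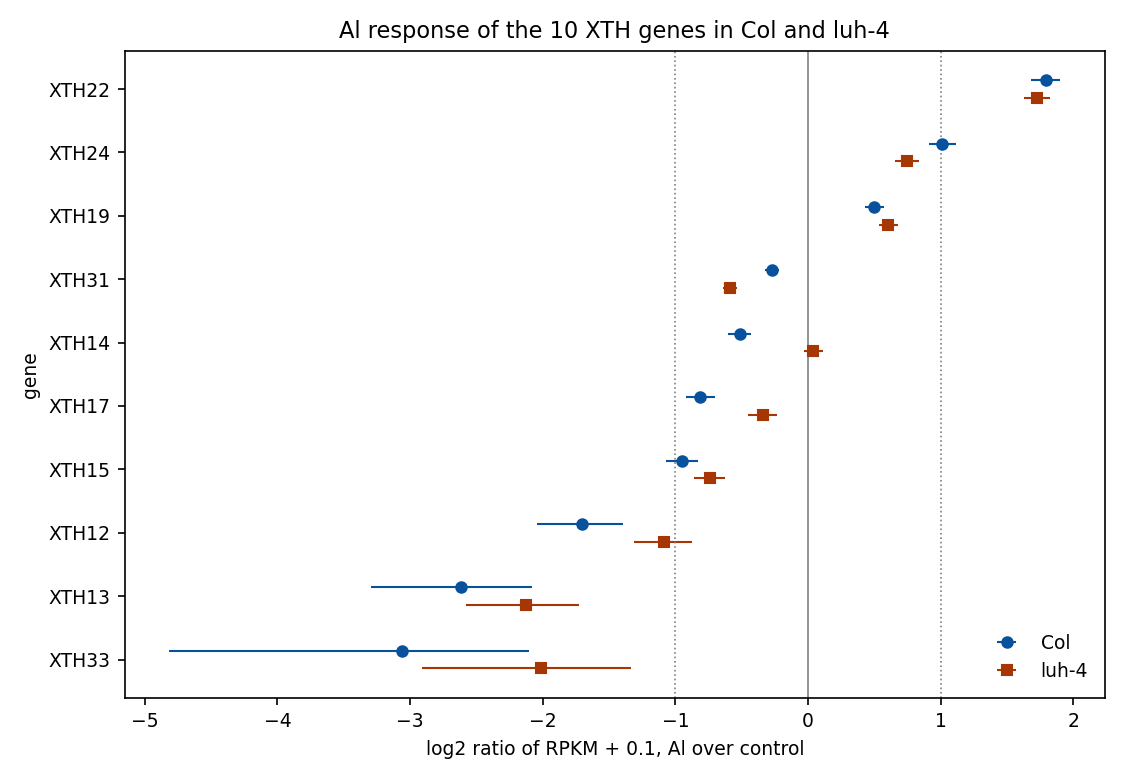
Log2 ratio of RPKM + 0.1, Al over control, of the 10 XTH genes in Col (circles) and luh-4 (squares), with 95% exact binomial intervals of counting error and dotted lines at the size rule of 1 and -1. XTH12, XTH13 and XTH33 lie at or beyond -1.09 in both genotypes, and XTH22 at 1.79 and 1.72.

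The second question was the effect of the luh-4 allele. In the controls, 0 of the 10 genes passed the rule, where it called 1.55% of 17070 loci higher in luh-4 and 0.855% lower, 2.41% in either direction. XTH12 had the largest log2 ratio of luh-4 to Col, 0.63 (0.44 to 0.83), followed by XTH13 at 0.57 (0.29 to 0.85), XTH33 at 0.39 (-0.11 to 0.91), XTH31 at 0.36 (0.31 to 0.41) and XTH24 at 0.32 (0.21 to 0.43). The ratio was above 0 for 8 of the 10, at a median of 0.30, and for 9161 of the 17070 loci, at a median of 0.02. XTH17 at -0.21 (-0.31 to -0.11) and XTH15 at -0.06 (-0.16 to 0.04) were the other 2 of the 10. Among the 16 other measured loci of the family, 7 were above 0 and 9 below, at a median of -0.01. With Al, XTH12, XTH13 and XTH33 were higher in luh-4, by log2 ratios of 1.25 (0.93 to 1.60), 1.06 (0.42 to 1.80) and 1.44 (0.23 to 3.25), and 0 of the 10 were lower. The rule called 1.22% of 17011 loci higher and 0.946% lower, 2.17% in either direction. Adding 1 RPKM in place of 0.1 gave 0.84 for XTH13 and 0.73 for XTH33, so that of the 3 only XTH12 passed. The edgeR fit of genotype plus treatment called 0.338% of loci higher in luh-4, 0.574% lower and 0.912% in either direction, with XTH12 and XTH14 among those higher. In the ratios of luh-4 to Col with Al, XTH14 came next after XTH12, XTH13 and XTH33, at 0.83 (0.75 to 0.92). All 10 of these ratios were above 0, at a median of 0.23, against 7831 of the 17011 loci. Each of these comparisons shares its Col library with the Al response of Col, so their values are not independent of it.

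The difference between the Al responses, luh-4 minus Col, passed the rule for 0 of the 10 genes, where the rule called 1.35% of 17435 loci above and 2.26% below, 3.61% in either direction. It was 1.05 for XTH33, with an interval of -0.23 to 2.53 that holds 0. It was 0.61 (0.24 to 0.999) for XTH12, 0.49 (-0.19 to 1.21) for XTH13, 0.55 (0.44 to 0.67) for XTH14 and 0.47 (0.32 to 0.62) for XTH17. For XTH22 it was -0.07 (-0.21 to 0.08), an interval that reaches 0.21 in size. XTH31 at -0.32 (-0.39 to -0.24) and XTH24 at -0.27 (-0.40 to -0.13) had intervals below 0. If the control of Col replaces that of luh-4, the difference becomes the ratio of luh-4 to Col with Al: it then passes the rule for XTH12, XTH13 and XTH33, and it is 0.04 (-0.01 to 0.10) for XTH31 and 0.05 (-0.03 to 0.13) for XTH24, whose sign turns and whose intervals hold 0.

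The rest of the family gives the frame for these values. Of the other 23 loci, 16 were measured. XTH1, XTH2 and XTH3 were not listed in any library, and XTH6, XTH11, XTH25 and XTH29 stayed under 1 RPKM in all. In Col, XTH16 at -1.57 (-1.74 to -1.40), XTH26 at -1.36 (-1.73 to -1.03) and XTH21 at -1.31 (-1.57 to -1.08) fell, and 0 of the 16 rose. In luh-4, XTH18 rose at 1.07 (1.02 to 1.13) and none fell. Against the control of Col, XTH18 was at 0.86 (0.80 to 0.91) and did not pass, and XTH23, at 0.72 against its own control, passed at 1.24 (1.02 to 1.47). In Col, XTH18 had 381 RPKM without and 632 with Al, a log2 ratio of 0.73 (0.67 to 0.78). XTH26, known as a root hair XTH, had 20.9 RPKM in Col without and 8.07 with Al, and 34.1 and 26.9 RPKM in luh-4. It was higher in luh-4 than in Col with Al, at 1.72 (1.41 to 2.08), and was the 1 family locus whose Al responses differed past the rule, at 1.02 (0.63 to 1.42). With a pseudocount of 1 RPKM no family locus passed that rule.

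Several of these genes lie next to each other, so that the ratios can be set beside their order on the chromosome. On chromosome 5, XTH12, XTH13, XTH25 and XTH22 span 8.36 kb on 1 strand, with 1 small protein-coding gene between XTH12 and XTH13. XTH12 and XTH13 fell at 1 end of this run, XTH22 rose at the other, and XTH25 between them had 0 to 4 reads. On chromosome 4, XTH24, XTH18 and XTH19 span 11.03 kb on 1 strand, and all 3 had ratios above 0 in both genotypes. XTH23 and XTH14, adjacent on the same chromosome, had 0.88 (0.65 to 1.11) and -0.52 in Col.

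**Figure D3:**
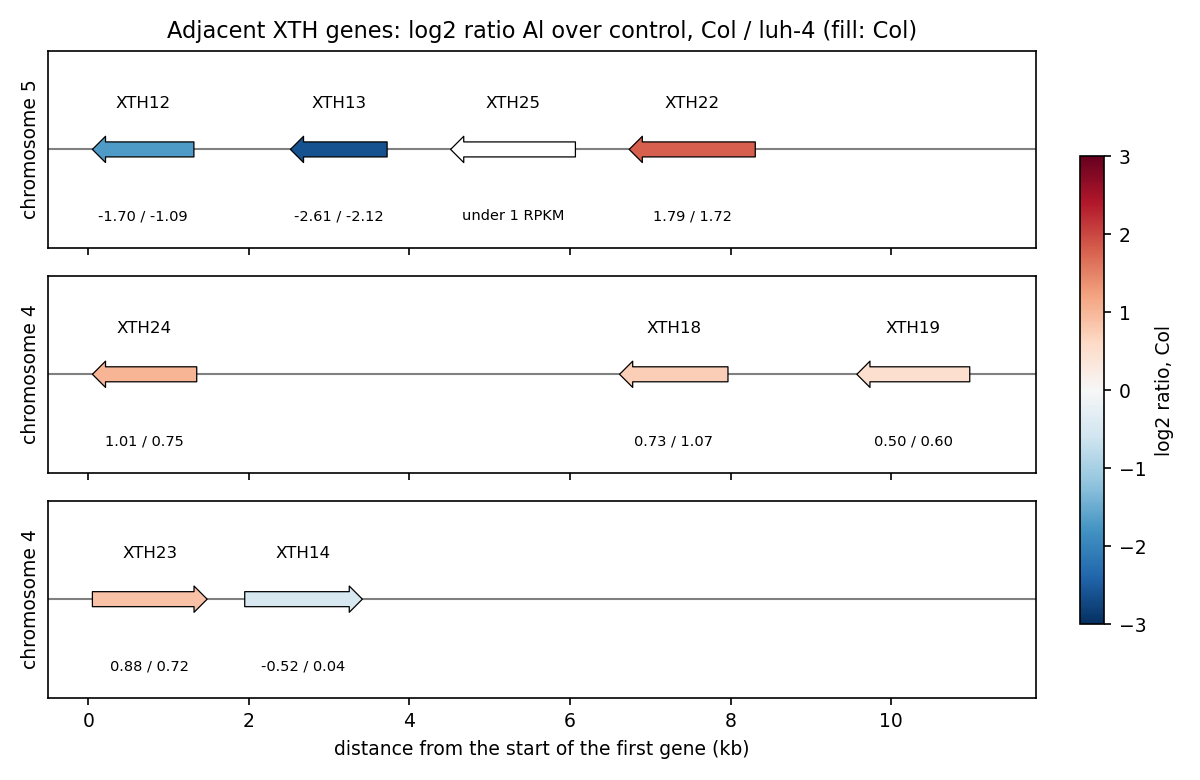
Runs of adjacent XTH genes drawn to scale as distance from the start of the first gene (kb), with arrows in the direction of transcription filled by the log2 ratio of Al to control in Col and the Col and luh-4 ratios printed beneath. Other genes are not drawn. In the upper run XTH12 and XTH13 have ratios of -1.70 and -2.61 in Col and XTH22 has 1.79.

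The 250 bases before the annotated starts of XTH13 and XTH22 are shown because these neighbours moved in opposite directions. Capitals mark matches, on either strand, to CGCGTT, a motif of rapid stress response promoters, and to TTGAC, the core bound by WRKY factors. The 2 windows hold 1 match each.
XTH13, chr5:23304096-23304345 (TAIR10.1, minus strand): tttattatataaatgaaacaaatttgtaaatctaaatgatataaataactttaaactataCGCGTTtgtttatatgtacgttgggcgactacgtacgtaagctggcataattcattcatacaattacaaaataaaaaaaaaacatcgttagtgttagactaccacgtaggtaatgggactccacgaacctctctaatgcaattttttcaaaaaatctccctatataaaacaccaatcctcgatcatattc
XTH22, chr5:23308681-23308930 (TAIR10.1, minus strand): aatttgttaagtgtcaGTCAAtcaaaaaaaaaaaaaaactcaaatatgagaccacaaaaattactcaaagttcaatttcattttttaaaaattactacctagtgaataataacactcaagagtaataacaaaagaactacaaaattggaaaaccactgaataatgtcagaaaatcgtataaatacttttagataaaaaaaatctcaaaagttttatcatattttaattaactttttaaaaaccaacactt
CGCGTT was in 1 of the 10 promoters, that of XTH13, and in 2.59% of 27443 promoters of the same length. TTGAC was in 4 of the 10, those of XTH15, XTH19, XTH22 and XTH31, and in 44.9% of all promoters. CACGTG, in 6.49% of all, and the root hair element, in 0.754%, were in none of the 10 windows. Among the 45 pairs of these 10 promoters, XTH13 and XTH14 had the highest local alignment score. Their stretch of 45 bases, 38 of them identical, lies from -101 to -57 of XTH13 and from -74 to -30 of XTH14, counted back from the base before the gene start as -1, and capitals mark the differences.
XTH13, chr5:23304152-23304196 (TAIR10.1, minus strand): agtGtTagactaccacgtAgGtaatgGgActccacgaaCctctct
XTH14, chr4:13130217-13130261 (TAIR10.1, plus strand): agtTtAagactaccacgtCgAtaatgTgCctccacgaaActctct
In Col these genes had log2 ratios of Al to control of -2.61 and -0.52.

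The genes with patterns most like those of XTH12, XTH13, XTH22 and XTH33, which passed the rule in both genotypes, were sought among 5943 genes with a symbol and at least 5 RPKM in a library. Likeness was the Euclidean distance of log2(RPKM + 0.1), centred on its mean, over the 4 libraries. Nearest to XTH12 were RIC1 (distance 0.11), RSH3, which RefSeq also lists as root hair specific 3 (0.20), and RHS18 (0.24). Nearest to XTH13 were the pyrophosphorylase gene PPa3 (0.25), XTH33 (0.34) and RHS8 (0.44), which encodes the xyloglucan galacturonosyltransferase XUT1 of root hairs. Nearest to XTH33 were XTH13 (0.34), PPa3 (0.39) and the glutathione transferase gene GSTU14 (0.41). Nearest to XTH22 were ANAC087 (0.14), the indole glucosinolate methyltransferase gene IGMT2 (0.18) and XBAT34 (0.21). With 4 libraries these distances describe the libraries only.

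In Col all 9 root hair markers had Al ratios below 0, and in luh-4 8 of the 9 did. Over all loci 8067 of 17068 were below 0 in Col and 9042 of 17117 in luh-4. Of the 10 XTH genes 7 were below 0 in Col and 6 in luh-4, with XTH12, XTH13 and XTH33 among them in both. Of 9 markers, 4 fell in Col, EXPA7 at -2.03 (-2.18 to -1.87), MRH6 at -1.94, COBL9 at -1.64 and RSL4 at -1.25, and their summed level went from 646 to 318 RPKM. In luh-4, 0 of 9 passed the rule and the sum went from 798 to 617 RPKM. With Al, all 9 had ratios of luh-4 to Col above 0, at a median of 1.03. Of them 5 passed the rule, which called 1.22% of 17011 loci higher. No marker of the list was at 0 in any library. In luh-4, where XTH12, XTH13 and XTH33 passed the rule, the median marker ratio was -0.25, against -0.95 in Col. The part of the root hair markers in the XTH values was not tested. Of the 14 green shoot markers 11 fell with Al in luh-4 and 0 in Col, at medians of -2.14 and -0.33. Without Al, all 14 had ratios of luh-4 to Col above 0, and 9 of them passed the rule, which called 1.55% of 17070 loci higher. None of the 14 had a level of 0 in any library. Their part in the XTH values was not tested.

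Most genes that make or trim xyloglucan did not pass the rule in either genotype. Of 16 synthesis genes, 15 were measured, and XXT1 had 0 reads in every library. In Col 2 fell and 0 rose: XUT1 at -2.77 (-3.37 to -2.37) and CSLC12, of the glucan synthase group, at -1.71 (-2.09 to -1.41). In luh-4 XUT1 fell at -1.63 (-2.02 to -1.31), and CSLC12 had -0.79 (-1.05 to -0.54). Both were higher in luh-4 than in Col with Al, at 1.14 (0.64 to 1.77) and 1.07 (0.73 to 1.46). The xylosyltransferase genes XXT2 and XXT5, with the galactosyltransferase gene MUR3 among the highest of the list, had log2 ratios of -0.15, -0.08 and 0.07 in Col and 0.08, -0.11 and 0.13 in luh-4. The median of the list was -0.11 in both genotypes. The 3 trimming genes did not pass: the xylosidase gene XYL1 had -0.31 in Col and -0.28 in luh-4, the galactosidase gene BGAL10 -0.26 and -0.33, and the fucosidase gene AXY8 -0.72 and -0.61.

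**Figure D4:**
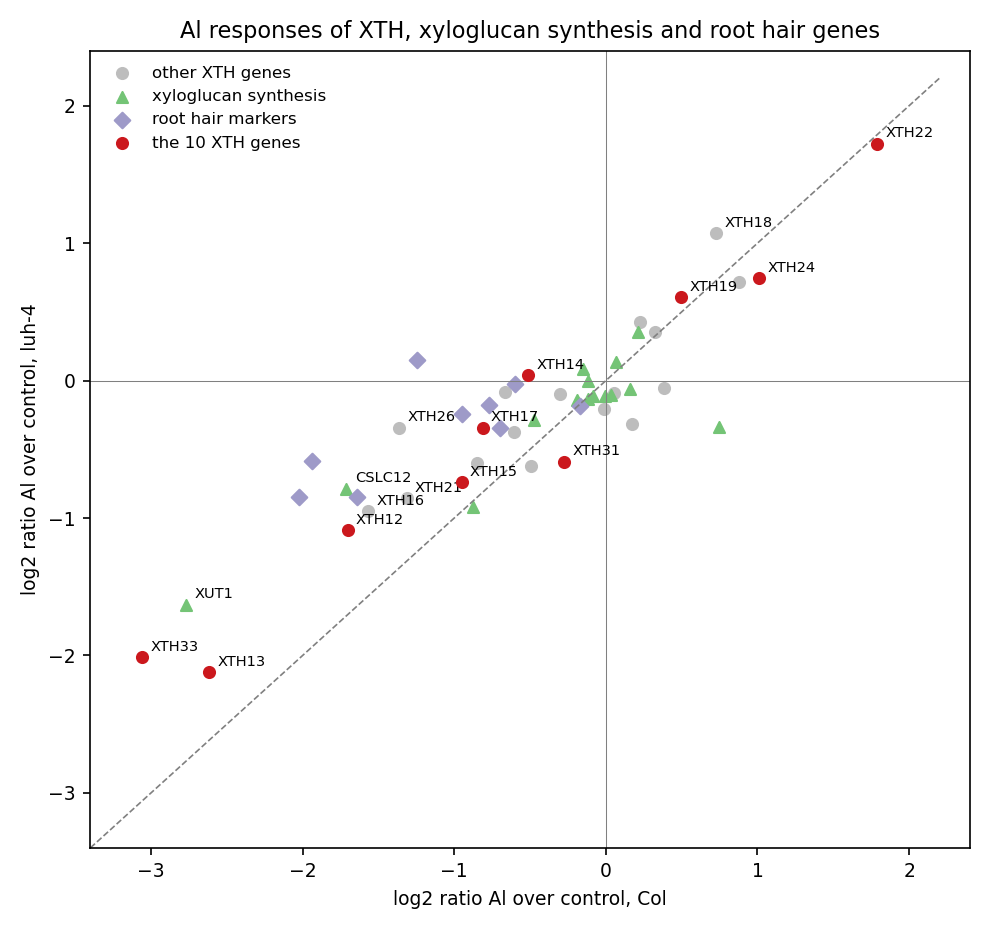
Log2 ratio of Al to control in luh-4 (y) against Col (x), 1 point per gene measured in both, for the 10 XTH genes, the other XTH genes, xyloglucan synthesis genes and root hair markers, with a dashed line where both ratios are equal. XTH33, XTH13, XUT1 and XTH12 lie at the lower left, above the line, and XTH22 at the upper right near it.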

How the data were processed

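For each of 4 libraries the authors deposited a table of read counts, percent of length covered and RPKM per transcript. Per the file headers the counts sum to the library totals, and the deposited RPKM equalled the count scaled by that total and by length, within a relative difference of 5.0e-15. Of the deposited percent coverages of the 10 genes, 38 of 40 were at least 97%, the others being 89.36% for XTH13 and 67.42% for XTH33, both in Col Al. The submitters' processing notes name TAIR10; no aligner or counter is given in the sources used here. Transcripts without reads are not listed and were taken as 0.

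Values were summed per locus. Groups came from the labels, and since each holds a single library, comparisons carry no test. Log2 ratios of RPKM + 0.1 were computed for all loci with at least 1 RPKM in a library compared, with 95% intervals from the reads (Clopper-Pearson, exact binomial, conditional on their sum), or, for the difference between Al responses, normal intervals on log reads with 0.5 added. Intervals cover counting error only, since each group is 1 library. As PCR reads are not independent molecules, they may be too narrow even for that. The pseudocount understates changes of low genes. Named are all 10 genes, other family, xyloglucan and touch genes past the rule or among the highest of their list, LUH, and the 3 nearest patterns per gene that passed the rule in both genotypes. The root hair markers and XTH neighbours named were chosen after their values were seen. The members, lists and tests were chosen with earlier results of these data known.

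Python 3.11.15, numpy 2.4.6, pandas 2.3.3, scipy 1.17.1, matplotlib 3.10.9 and Biopython 1.88 were used, with R 4.3.3 and edgeR 4.0.16 for TMM factors and for an alternative fit of genotype plus treatment. RefSeq TAIR10.1 gave sequences, gene order and symbols, for 21258 of 21531 loci. The deposited tables hold no coordinates.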

Additional observations from a re-analysis of the deposited data

Results flagged for a closer look

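XTH14 had log2 ratios of Al to control of opposite sign in the genotypes, -0.52 in Col and 0.04 in luh-4, a difference of 0.55, although the luh-4 interval of -0.03 to 0.11 holds 0. Against the control of Col in place of that of luh-4, whose green shoot markers stood apart, XTH14 was at 0.32 (0.25 to 0.39) in luh-4 with Al. With that control on both sides, the difference is only the ratio of luh-4 to Col with Al: 0.83 for XTH14, 1.72 for XTH26 and 1.14 for XUT1. It includes the ratio of luh-4 to Col without Al, which was 0.28, 0.70 and 0.001, so it is no second measure of the Al response. With the luh-4 control, XTH26 and XUT1 differed between the genotypes in their Al response by more than the size rule, by 1.02 and 1.14, with intervals of 0.63 to 1.42 and 0.60 to 1.77. These differences were not tested against variation between plants, since each group is 1 library.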

How the results depend on the processing

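With a pseudocount of 1 RPKM the count of the 10 genes past the size rule between luh-4 and Col with Al went from 3 to 1, that of the family from 4 to 2, and the family count for the difference between Al responses from 1 to 0. The edgeR fit of genotype plus treatment, with 1 residual degree of freedom and a Benjamini-Hochberg adjusted p of 0.05 in place of the size rule, called 9 of the 10 genes for Al (3 higher, 6 lower) and 18 of the family, where it called 2072 of 17435 loci (11.9%). For genotype it called 2 of the 10, XTH12 and XTH14, and 3 of the family, against 0 and 0 past the size rule without Al. That fit has no fold minimum and counts an Al response that differs by genotype as error. The other counts, taken over both directions, stayed within 1.5 times under a pseudocount of 0.01, an RPKM minimum of 5 or none, TMM scaling, median centring, the most-read transcript, XTH12 and XTH13 summed, and Col control as baseline of luh-4 Al. By direction, the genes higher with Al in Col went from 2 to 1 of the 10, and from 2 to 1 of the family, under TMM scaling and under median centring, and those higher in luh-4 from 1 to 2 of the 10, and from 2 to 3 of the family, with the Col control. Of 443 recomputed ratios of single genes 0 changed sign past the rule. In all, 412 kept their side of it, 404 of them within their interval and 8 outside. Another 7 no longer passed, 13 newly passed and 11 that did not pass in either case moved outside their interval. Under an RPKM minimum of 5, XTH33 was not measured in the Al response of Col or between luh-4 and Col with Al. It passed the main rule in both, and these 2 lost calls are not among the 443. For the edgeR fit, to pass means its adjusted p limit with no fold minimum, and all but 1 of the 13 were of that kind. Each edgeR estimate is 1 value over both genotypes or both treatments and was set beside each of 2 comparisons. The 443 therefore count it 2 times, and it is not a recomputed ratio of either comparison alone. No paired analysis was possible because each group has 1 library and the labels carry no replicate numbers; the edgeR fit has genotype as a term but pairs no replicates. Depth limits XTH33 most, with 6 reads in Col Al.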
